A study of Mus musculus with 3 samples.

Results

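The cells described here are 2201 fibroblasts of the mouse ascending aorta in which Pi16, Cd248 and Scara5 together were the leading marker sum. They were selected on measured values in droplet single-cell RNA-sequencing data. A barcode had 600 to 5000 genes and at most 10% of its UMIs (unique molecular identifiers, which count RNA molecules) from mt- genes. Per 10000 UMIs of the cell it had a Dcn count of at least 20 and a summed count of the contractile genes Acta2, Myh11, Tagln, Cnn1, Myl9 and Tpm2 under 100, with Ptprc and Pecam1 at 0. Of the sums Pi16+Cd248+Scara5, Gdf10+Hsd11b1+Cpxm2 and Comp+Chad+Fmod, the first was the largest and at least 3. The 33178 deposited barcodes held 26158 within the quality limits, and 6057 of those met the Dcn and contractile limits with Ptprc and Pecam1 at 0 and are called gated fibroblasts. The 2201 cells with the first sum leading are called Pi16 fibroblasts, and the cells led by the other sums are called the Gdf10 class (1734 cells) and the Comp class (1027 cells).

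The study compared the ascending aorta of male C57BL/6J mice at 45 days of age in 3 groups. WT mice carried normal Fbn1, and 3 were pooled. The mgR group was homozygous for the hypomorphic mgR allele of Fbn1 (Fbn1mgR/mgR), a model of Marfan syndrome, and 3 mice were pooled. The mgR-LOS group had the same genotype, 4 mice were pooled, and losartan, a blocker of the angiotensin II type 1 receptor, was given in the drinking water at 0.6 g/L from day 16. The labels of the mgR library do not say whether its mice drank vehicle. The allele is carried by every cell of the animal, so no cell type was targeted. Each group was 1 library from pooled aortas, with no replicate. Intervals on differences between libraries therefore cover counting error only, and no test between conditions was possible. The mgR library serves both as the mutant set against WT and as the comparator for losartan.

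Adventitial fibroblasts lie in the outer coat of the artery and make much of its collagen, proteoglycans and microfibrils. Fibroblasts with Pi16 (peptidase inhibitor 16, a secreted protein) and Dpp4 (a surface peptidase) line large vessels in many tissues and are regarded as a progenitor-like state from which other fibroblasts can form. They are also known as a source of chemokines, complement and growth factor binding proteins in the vessel wall.

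The Pi16 fibroblasts numbered 537 in WT, 675 in mgR and 989 in mgR-LOS. Their summed UMIs were 5184298 in WT, 8235682 in mgR and 8223265 in mgR-LOS, and levels below are UMIs per 1000000 of these sums (CPM). The median cell had 9833 UMIs in WT, 12180 in mgR and 8104 in mgR-LOS, so the losartan library was the shallowest per cell. Barcodes called as doublets by an artificial-neighbor score made up 2.61%, 2.67% and 12.9% of the cells in the same order, and they were kept. The share called among all passing barcodes was fixed by each library's barcode number, at 6.29%, 8.53% and 11.7%. The calls are therefore not a measured doublet rate. The mgR and WT libraries shared 22 barcode sequences, mgR-LOS and mgR shared 46, and mgR-LOS and WT shared 29. Of these, 1 sequence was a Pi16 fibroblast in both mgR-LOS and mgR. Where libraries are named in a row of 3 values, the order is WT, mgR and mgR-LOS.

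Pi16 itself led the marker sum in most of the cells. It was the highest of the 3 genes in 504 cells (93.9%) in WT, 584 (86.5%) in mgR and 806 (81.5%) in mgR-LOS. No Pi16 UMI was found in 2, 14 and 36 of the cells. These values were used to choose the cells and are a description. The median of the Pi16+Cd248+Scara5 sum was 20.9, 31.2 and 27.7 per 10000 UMIs. Near the limit, the cells with a sum of 3 to under 4 numbered 12, 25 and 38, and those just outside, with a sum of 2 to under 3 that was still the largest, numbered 12, 22 and 36. Mfap5 stood at 698, 921 and 899 CPM just inside and at 600.04, 819 and 531 CPM just outside. Dpp4, outside the rule, was 0, 32.6 and 0 CPM just inside, and Ly6c1 was 0, 105 and 18.7 CPM there, both below the levels over all the cells given further on, and in WT Mfap5 just inside was below its Gdf10-class level.

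Clec3b and Mfap5, markers of the same cells that the rule did not use, were also high. Clec3b, which encodes the secreted protein tetranectin, had 1718, 1485 and 2099 CPM in Pi16 fibroblasts and 494, 249 and 773 CPM in the Gdf10 class. Mfap5, a microfibril-associated glycoprotein, had 3042, 4019 and 3364 CPM in Pi16 fibroblasts and 912, 838 and 665 CPM in the Gdf10 class. Both were above the Gdf10 class in all 3 libraries. At a fixed depth of 3000 UMIs, 79.6%, 85.5% and 93.1% of Pi16 fibroblasts held a Clec3b UMI, against 0.509%, 0.438% and 1.495% of smooth muscle cells. Mfap5 set them apart less: at the same depth 96.6%, 96.3% and 97.1% of Pi16 fibroblasts and 71.8%, 31.9% and 32.0% of smooth muscle cells held a UMI of it. Shallower cells were left out, 62, 46 and 116 of the Pi16 fibroblasts, and without thinning the Clec3b shares were 89.0%, 91.6% and 94.3%. The median smooth muscle cell held 14331, 15319.5 and 8527 UMIs.

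Markers of other cell types were measured in the same cells. Of 14 leukocyte markers the summed level was 76.6, 98.6 and 173 CPM, against 928, 6166 and 2502 CPM in all other cells, with Cd74 the most abundant and Ptprc at 0 by the rule. The 11 endothelial markers summed to 101, 94.8 and 90.1 CPM, nearly all from Eng, which fibroblasts also express, against 173, 247 and 181 CPM in other cells, and Pecam1 was at 0 by the rule. The 13 smooth muscle markers summed to 1219, 1085 and 1417 CPM, against 46472, 29604 and 39272 CPM in other cells. The leukocyte, endothelial and smooth muscle sums were below those of the other cells in every library. The 8 mesothelial markers, led by Wt1, summed to 4.44, 45.3 and 36.1 CPM, against 19.4, 43.1 and 16.4 CPM in other cells. The 6 adipocyte markers, led by Car3, summed to 12.3, 7.41 and 58.9 CPM. The 8 Schwann cell markers, led by S100b, summed to 47.3, 38.2 and 45.7 CPM, against 31.8, 39.0 and 35.2 CPM in other cells, and the 5 red cell markers, led by Hbb-bs, to 33.8, 11.2 and 40.0 CPM. The part of these cell types in the differences below was not tested beyond the values given there.

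As a share of gated fibroblasts, Pi16 fibroblasts made up 45.8% in WT (95% Clopper-Pearson interval 42.9 to 48.7%), 32.9% in mgR (30.9 to 35.0%) and 34.9% in mgR-LOS (33.1 to 36.7%). The mgR share was 12.8 percentage points below WT (9.28 to 16.4 points below). The mgR-LOS share was 1.94 points above mgR, with an interval of -0.782 to 4.65 points that includes 0. As a share of all passing barcodes the values were 10.0%, 8.36% and 7.77%. In the same order the Gdf10 class held 12.1%, 39.7% and 27.5% of gated fibroblasts. Intervals cover counting error only, and the shares follow from marker levels that themselves differ between the libraries. The order of the libraries also depended on the rule. Pi16 fibroblasts with a sum of at least 20 (high-sum cells, 278, 436 and 582) made up 23.7%, 21.3% and 20.5% of gated fibroblasts. Pi16 fibroblasts with no UMI of Gdf10, Hsd11b1 or Cpxm2 (Gdf10-free cells, 175, 364 and 558) made up 14.9%, 17.8% and 19.7% of them. A shallow cell more readily holds no UMI of these genes, and the part of depth in the Gdf10-free shares was not tested. Both sets were chosen after seeing the data, and values in them are given below for some of the genes whose 1.5-fold difference was lost or whose ratio moved by over 1.5 times there; counts over all named genes are given at the end.

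**Figure D1:**
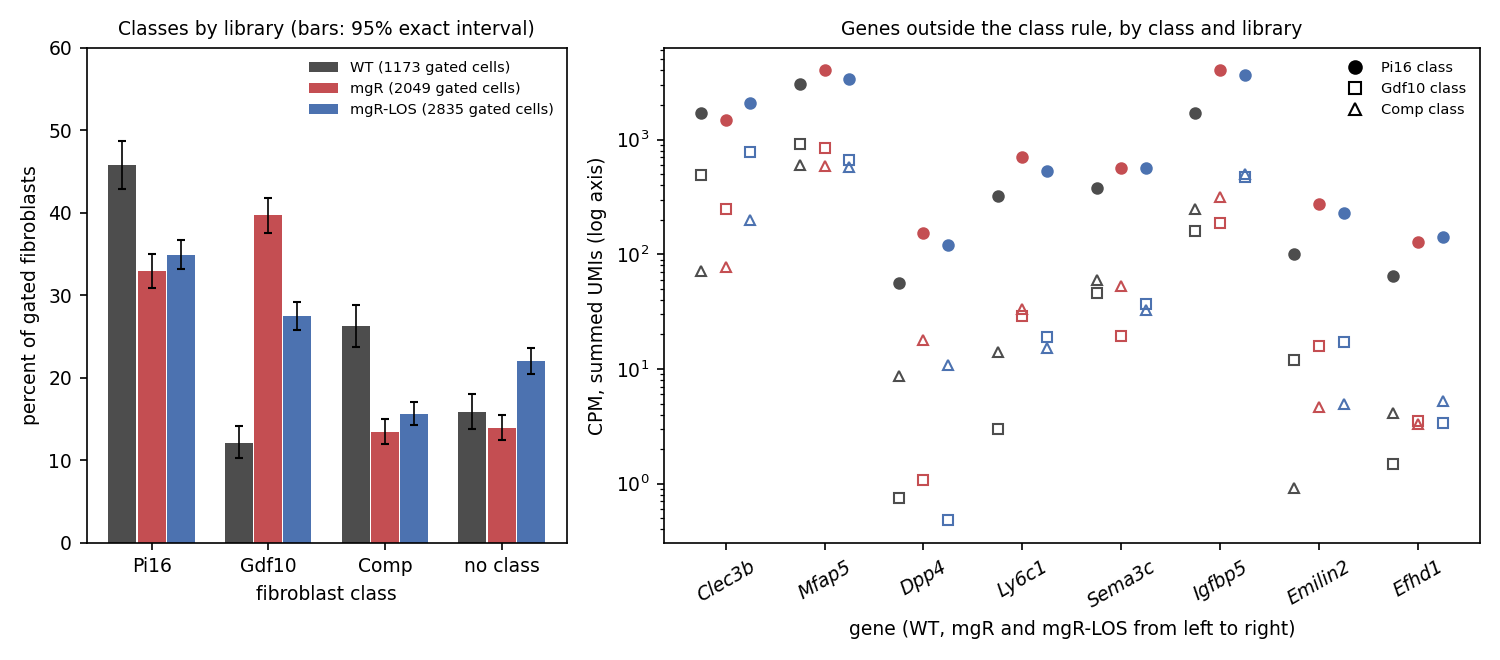
Left, percent of gated fibroblasts in each class by library, with 95% exact binomial intervals. Right, summed-UMI CPM on a log axis of 8 genes outside the class rule in the Pi16 (filled circles), Gdf10 (squares) and Comp (triangles) classes; Clec3b and Mfap5 were higher in the Pi16 class in all 3 libraries, and Dpp4 in the Gdf10 class was near 0.

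The genes that set Pi16 fibroblasts apart from the Gdf10 class came from a cells-against-cells comparison in which the classes were chosen on expression, so they are a description. Of 5821 genes with a mean of at least 20 CPM over the 3 libraries (called the tested genes, although with 1 library a group no significance test was made), 324 (5.57%) were at least 1.5-fold above the Gdf10 class in all 3 libraries. Of the 30 tested genes in a list of adventitial progenitor markers (rule genes left out), 28 were. Dpp4 led the ranking with 56.1, 154 and 120.1 CPM in Pi16 fibroblasts and 0.749, 1.08 and 0.480 CPM in the Gdf10 class. Next came Efhd1, a calcium-binding mitochondrial protein, with 65.2, 129 and 142 CPM, which was also high in smooth muscle cells at 141, 204 and 154 CPM.

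Other leaders follow. Ly6c1, a surface protein that endothelial cells and monocytes share, had 322, 707 and 529 CPM against 3.00, 28.8 and 19.0 CPM in the Gdf10 class. Sema3c, a secreted guidance protein, had 382, 563 and 563 CPM against 45.7, 19.4 and 37.0 CPM. Igfbp5, which binds insulin-like growth factors, had 1704, 4007 and 3629 CPM against 160.3, 188 and 470.1 CPM. Each of the 3 was above the Gdf10 class in every library. Efemp1, a fibulin, had 121, 456 and 437 CPM against 15.7, 70.7 and 66.1 CPM. The others in the first 15 were Pla1a, Smpd3, Tmem100, Cmah, Lrrn4cl, Emilin2, Fez1, Adgrd1 and Gfpt2. Against the Comp class, the first 10 were Emilin2, Pla1a, Ly6c1, Ebf2, Lrrn4cl, Ccl11, Tek, Efhd1, Cmah and Adgrd1. Ebf2, a transcription factor of mesenchymal precursors, had 95.3, 153 and 116 CPM in Pi16 fibroblasts and 1.15, 7.70 and 1.996 CPM in the Comp class. Tek, the angiopoietin receptor known best from endothelium, had 54.0, 79.0 and 94.1 CPM against 0.918, 4.95 and 2.74 CPM.

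The cells also varied among themselves. The 15 genes with the most variance beyond counting noise in every library were Mgp, Igfbp5, Cst3, Gm42418, Col3a1, Apoe, Col1a2, Col1a1, Mt1, Gsn, Eln, Ifi27l2a, Malat1, Fos and Sparc. The 10% of cells highest in Igfbp5 held 79.3, 60.2 and 60.5% of its UMIs in the 3 libraries. For Eln, the elastin gene, the highest 10% of cells held 50.9, 64.9 and 51.1%, and for Apoe, a lipid carrier, 46.3, 58.0 and 48.4%. Gsn was spread more evenly, with 26.2, 25.2 and 20.8% in the highest 10% of cells. The most abundant genes apart from mt- and ribosomal protein genes were Gm42418, Malat1, Dcn, Col3a1, Sparc, Col1a2, Mgp, Gsn, Tpt1 and Col1a1. Gm42418 overlaps ribosomal RNA sequence, and its level, 21305, 14995 and 27188 CPM, is uncertain for that reason.

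Fbn1, the gene that carries the mgR allele, was first examined in every library. In Pi16 fibroblasts it was 1316 (1285 to 1348) in WT, 727 (709 to 745) in mgR and 569 (552 to 585) in mgR-LOS CPM, with 95% exact Poisson intervals in parentheses. The mgR level was 0.552 (0.533 to 0.572) times WT (95% exact conditional binomial interval), and mgR-LOS was 0.782 (0.753 to 0.813) times mgR. WT was the highest and the intervals did not overlap. In all other passing cells Fbn1 was 285, 98.2 and 80.6 CPM and in the Gdf10 class 571, 126 and 112 CPM, so the Pi16 fibroblasts had the higher level in every library. The 3′ tags lie near the end of the transcript and do not read the mgR allele itself.

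Across the genes tested, 404 were at least 1.5-fold higher in mgR than in WT Pi16 fibroblasts (6.94% of 5821) and 277 were at least 1.5-fold lower (4.76%). In mgR-LOS over mgR, 181 were higher (3.11%) and 140 lower (2.41%); 1 of the 181, AI507597, had 1 and 3 UMIs in these libraries and has no usable ratio. In mgR-LOS over WT, 434 were higher (7.46%) and 263 lower (4.52%). The median log2 ratio was 0.04 for mgR over WT and -0.01 for mgR-LOS over mgR, so the libraries were centred alike. Counts here are of single libraries and say nothing of replicate spread, and the 2 contrasts share the mgR library. The shares given here are those to set beside the list counts below.

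**Figure D2:**
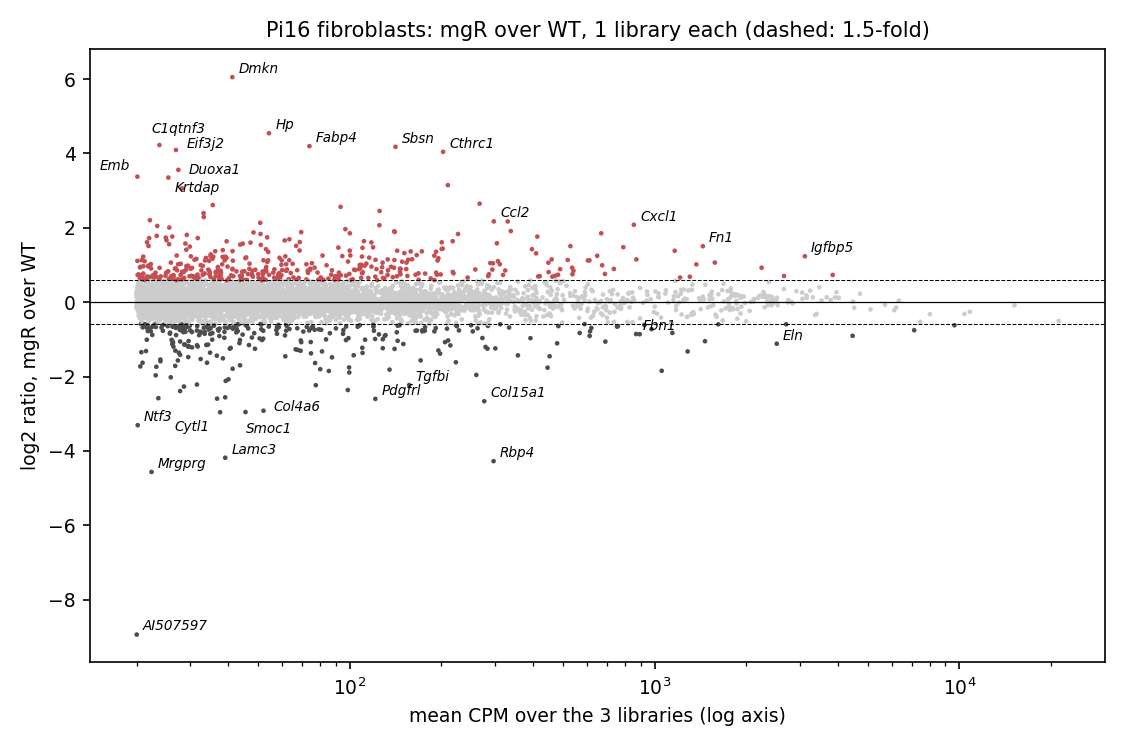
Log2 ratio of mgR over WT against the mean CPM over the 3 libraries (log axis) for the 5821 tested genes in Pi16 fibroblasts; dashed lines mark 1.5-fold, red points are higher and dark points lower by that much. Dmkn is the highest point and AI507597 the lowest.

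The epidermal gene neighbours Sbsn, Dmkn and Krtdap were among the 10 genes with the largest mgR over WT ratio. Sbsn (suprabasin), Dmkn (dermokine) and Krtdap (keratinocyte differentiation associated protein) encode secreted proteins best known from the upper epidermis. They lie side by side on the plus strand of chromosome 7 (GRCm38), Sbsn at chr7:30751471-30756134, Dmkn at chr7:30763756-30781063 and Krtdap at chr7:30787896-30791097. Sbsn was 15.6 (12.4 to 19.4) in WT, 283 (271 to 294) in mgR and 126 (118 to 134) in mgR-LOS CPM. Dmkn was 1.54 (0.666 to 3.04) in WT, 102 (95.6 to 109.5) in mgR and 19.8 (16.9 to 23.1) in mgR-LOS CPM. Krtdap was 4.63 (2.97 to 6.89) in WT, 47.2 (42.7 to 52.2) in mgR and 24.4 (21.2 to 28.1) in mgR-LOS CPM. All 3 were highest in mgR, lowest in WT and between them in mgR-LOS, with no overlap of the intervals.

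The mgR level was 66.3 (33.5 to 154) times WT for Dmkn, 18.1 (14.5 to 22.9) times for Sbsn and 10.2 (6.76 to 16.1) times for Krtdap. Among Gdf10-free cells these ratios were 43.0 (19.7 to 118), 13.1 (10.0 to 17.4) and 4.92 (3.25 to 7.80). The mgR-LOS level was 0.194 (0.163 to 0.229), 0.446 (0.414 to 0.480) and 0.517 (0.434 to 0.615) times mgR for the same genes. WT Dmkn rested on 8 UMIs, so its ratio has a wide interval. In the Gdf10 class Sbsn was 3.00, 2.36 and 3.52 CPM, Dmkn 0, 0.394 and 0.160 CPM and Krtdap 0, 0.197 and 0 CPM, so the 3 genes were near 0 there in every library. Cells with a UMI of any of the 3 numbered 41 (7.64%) in WT, 268 (39.7%) in mgR and 245 (24.8%) in mgR-LOS, and at least 2 of the genes were found in 5, 122 and 85 cells. At a fixed depth of 3000 UMIs Sbsn was detected in 2.53% (1.31 to 4.37%), 24.2% (20.9 to 27.7%) and 15.7% (13.3 to 18.3%) of the cells, against 0.908%, 0.915% and 1.54% of smooth muscle cells.

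The promoters of the 3 genes are shown because the genes moved together; they come from RefSeq, build GRCm38.p6, plus strand, and run from 250 bases before the transcription start to 10 after. Sbsn is chr7:30751221-30751480, Dmkn is chr7:30763506-30763765, with 3 starts listed of which the first is used, and Krtdap is chr7:30787655-30787914. Capitals mark a match to the AP-1 motif, TGANTCA, searched on both strands.
Sbsn: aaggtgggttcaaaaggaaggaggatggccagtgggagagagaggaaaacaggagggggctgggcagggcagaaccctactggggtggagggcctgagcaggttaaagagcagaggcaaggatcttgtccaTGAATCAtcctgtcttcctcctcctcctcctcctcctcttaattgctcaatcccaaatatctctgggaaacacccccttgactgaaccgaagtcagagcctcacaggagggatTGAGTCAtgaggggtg
Dmkn: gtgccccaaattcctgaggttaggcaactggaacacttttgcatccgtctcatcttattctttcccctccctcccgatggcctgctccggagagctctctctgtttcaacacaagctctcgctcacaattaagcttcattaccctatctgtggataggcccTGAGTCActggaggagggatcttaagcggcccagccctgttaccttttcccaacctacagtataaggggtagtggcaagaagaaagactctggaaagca
Krtdap: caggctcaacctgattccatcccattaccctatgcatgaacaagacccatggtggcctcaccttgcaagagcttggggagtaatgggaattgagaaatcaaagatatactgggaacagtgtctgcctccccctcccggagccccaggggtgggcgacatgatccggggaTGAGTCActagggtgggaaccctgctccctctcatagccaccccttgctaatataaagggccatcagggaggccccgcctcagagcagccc
Each promoter held the motif, Sbsn at 119 and 6 bases before the start, Dmkn at 89 and Krtdap at 81. Of 27025 promoters of the same length, 7.15% held it. The letters TATAAA, searched the same way on both strands, were in the Krtdap window and not in the others, and 13.3% of promoters held them. A match is a description of the letters and not evidence of a bound factor. Of the AP-1 genes, Fos was 2669, 2686 and 3086 CPM and Junb 1729, 1581 and 1948 CPM. Jund in mgR was 0.662 times WT, and Fosb in mgR-LOS was 0.640 times mgR. A part of AP-1 in the levels of Sbsn, Dmkn and Krtdap was not tested.

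The cells with a UMI of these 3 genes differed from the rest of the Pi16 fibroblasts, a split made after the values were seen and given as levels with no test. They were deeper, with medians of 13188, 14653 and 10521 UMIs against 9510, 9859 and 7407. Dpp4 was 127, 250.4 and 258 CPM in them and 48.3, 66.2 and 56.2 CPM in the others. Igfbp5 was 4986, 7040.1 and 7243 CPM against 1337, 1217 and 1958 CPM. Fbn1 was 2101, 1169 and 1098 CPM against 1228, 319.8 and 324 CPM, so the higher level was in the cells with the 3 genes in every library. The same order held for Sema3c, Cd55 and Efemp1. The part of depth in this split was not tested.

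Other genes went the opposite way in the same cells. Rbp4, the retinol carrier, was 266, 11.9 and 22.7 CPM in cells with a UMI of the 3 genes and 770.4, 60.4 and 184 CPM in the others. Apoe was 1139, 395 and 405 CPM against 2011, 1419 and 2066 CPM. Mgp, an inhibitor of calcification, was 7028, 3362 and 1707 CPM against 10186, 10048 and 7407 CPM. Col15a1 and Eln were also lower in them in each library. Hp, in contrast, was not ordered alike across libraries, with 7.67, 106 and 32.3 CPM against 5.36, 153 and 24.7 CPM.

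Mesothelial markers moved with these genes between libraries. Of the 8 markers at least 1 UMI was found in 15 (2.79%), 100 (14.8%) and 88 (8.90%) of the Pi16 fibroblasts, and among the cells with a UMI of Sbsn, Dmkn or Krtdap in 17.1%, 26.9% and 23.7%. At least 2 different markers were found in 0, 6 and 3 cells. In the cells with no mesothelial UMI, 522, 575 and 901 of them, Sbsn was 9.81, 208 and 101 CPM, Dmkn 0.200, 78.3 and 14.2 CPM and Krtdap 3.40, 31.3 and 17.7 CPM. With 1 WT UMI of Dmkn in these cells, its mgR over WT ratio was 391 (69.9 to 15481). These cells held 59.3%, 60.1% and 68.6% of the UMIs of the 3 genes.

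**Figure D3:**
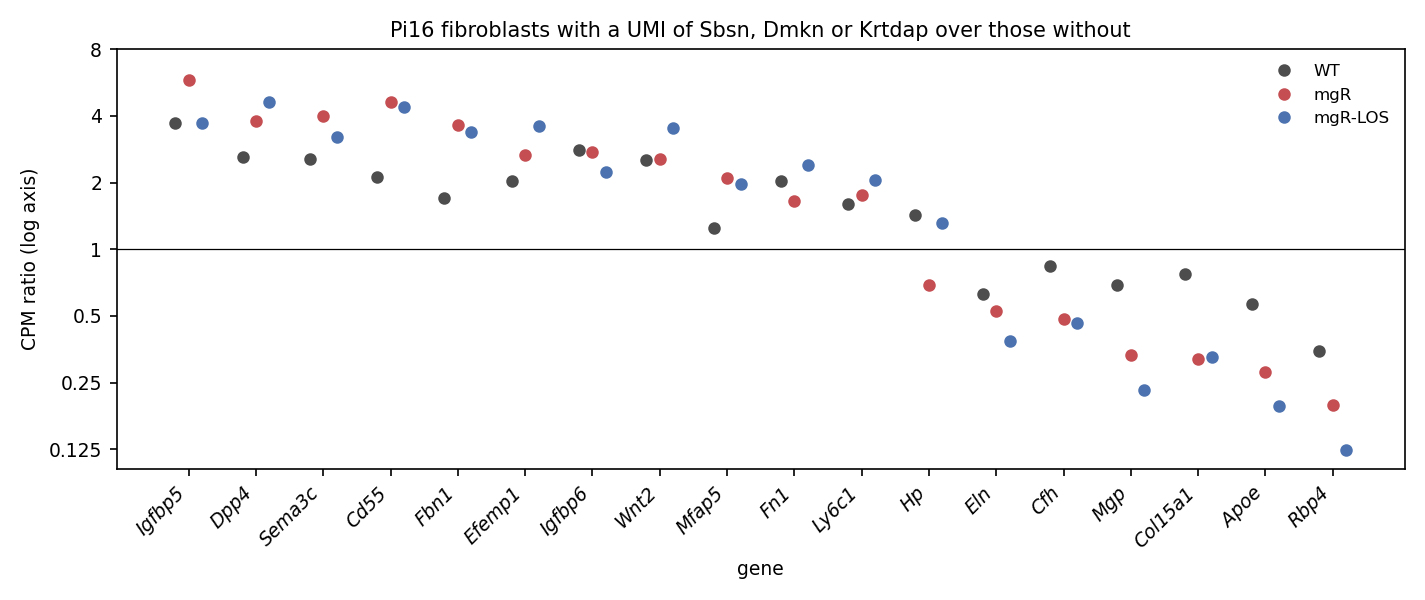
Ratio of CPM (log axis) in Pi16 fibroblasts with a UMI of Sbsn, Dmkn or Krtdap over those without, for 18 genes in each library; points above 1 are higher in cells with the UMI. Igfbp5, Dpp4 and Sema3c lie above 1 and Rbp4, Apoe and Mgp below 1 in all 3 libraries.

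The other genes with the largest mgR over WT ratios were Hp, C1qtnf3, Fabp4, Eif3j2, Cthrc1, Duoxa1 and Emb. Hp, haptoglobin, was 5.59, 130.4 and 27.1 CPM. It was also higher in the Gdf10 class of mgR, at 0, 84.6 and 8.003 CPM. C1qtnf3, a secreted protein of the C1q and TNF related family, was 2.70, 50.5 and 18.1 CPM. The mgR-LOS level was 0.208 (0.179 to 0.240) times mgR for Hp and 0.359 (0.295 to 0.434) times mgR for C1qtnf3. For C1qtnf3 the latter was 0.855 among Gdf10-free cells and 0.908 among high-sum cells. The mgR over WT ratio of 23.3 for Hp was 119 among Gdf10-free cells, where WT had 1 UMI, and 10.5 among high-sum cells. That of C1qtnf3, 18.7, was 5.25 among high-sum cells, and among Gdf10-free cells, where WT had 0 UMIs, mgR was at least 7.36-fold higher (WT set to the 3 counts that a count of 0 allows). Duoxa1, a maturation factor of dual oxidase, was 4.05, 47.7 and 30.5 CPM and 0, 0.197 and 0 CPM in the Gdf10 class, and its mgR over WT ratio of 11.8 was 7.66 among Gdf10-free cells. It lies on chromosome 2 at chr2:122302191-122313730 and Fbn1 on the same chromosome at chr2:125300594-125507993. Emb, a glycoprotein partner of monocarboxylate transporters, was 4.05, 42.0 and 14.3 CPM. Its mgR over WT ratio of 10.4 was 3.84 among Gdf10-free cells and 17.8 among high-sum cells. Fabp4, a fatty acid carrier of adipocytes and capillary endothelium, was 6.75, 124 and 91.0 CPM, against 131, 162 and 140.2 CPM in all other cells, and free RNA as its source was not tested. Its ratio of 18.3 was 9.497 among high-sum cells. Eif3j2 was 1.93, 32.9 and 46.0 CPM and moved alike in all other cells, 4.46, 38.5 and 58.5 CPM; it is a near-identical copy of Eif3j1, which was 68.5, 19.8 and 35.8 CPM, so reads of the pair may be split between them and its value is uncertain. Its mgR over WT ratio of 17.1 was 9.76 among Gdf10-free cells and 91.4 among high-sum cells.

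The 10 genes with the smallest mgR over WT ratio were AI507597, Mrgprg, Rbp4, Lamc3, Ntf3, Cytl1, Smoc1, Col4a6, Col15a1 and Pdgfrl. Rbp4 was 719.7 (697 to 743) in WT, 37.2 (33.1 to 41.6) in mgR and 133 (125 to 141) in mgR-LOS CPM. Its mgR level was 0.0516 (0.0458 to 0.0580) times WT and its mgR-LOS level 3.58 (3.15 to 4.07) times mgR. The libraries were well apart, with mgR lowest. In the Gdf10 class, where Rbp4 was more abundant, it was 1464, 543 and 865 CPM. Away from the class boundary the order was the same. Among Gdf10-free cells Rbp4 was 378, 17.1 and 57.0 CPM, and among high-sum cells it was 349, 18.4 and 51.7 CPM. The order was not particular to fibroblasts. At a fixed depth of 3000 UMIs, 39.6%, 10.6% and 12.1% of smooth muscle cells held a Rbp4 UMI. Of Pi16 fibroblasts, 51.4%, 6.68% and 19.7% did at that depth. Free RNA as a source of Rbp4 in Pi16 fibroblasts was not tested.

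Col15a1, Lamc3, Col4a6 and Smoc1 were 4 of the 10 lower genes. Col15a1, a collagen of the basement membrane zone, was 560.3, 88.4 and 181 CPM, with mgR at 0.158 (0.145 to 0.171) times WT. Lamc3, a laminin chain, was 94.9, 5.22 and 17.1 CPM. Col4a6, a collagen IV chain, was 112, 14.8 and 29.7 CPM. Smoc1, a calcium-binding matrix protein, was 96.1, 12.4 and 28.2 CPM. For each of them mgR was lowest, WT highest and mgR-LOS between them. The abundant collagen IV chains did not share this order, with Col4a1 at 570.2, 626 and 471 CPM and Col4a2 at 218, 266 and 227 CPM. Of 12 tested genes in a list of markers of Col15a1-type fibroblasts, 0 were higher and 3 lower in mgR (Col15a1, Bmp4 and Ptch1, the last with a log2 ratio of 0.0732 among Gdf10-free cells), and 4 were higher and 0 lower in mgR-LOS than in mgR. Among high-sum cells the latter counts were 0 and 0, with Col15a1 at 1.47 times mgR.

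The other genes with the smallest ratios were Mrgprg, Ntf3, Cytl1, Pdgfrl and AI507597. Mrgprg, an orphan receptor of the Mas-related family, was 57.5, 2.43 and 7.30 CPM and had no UMI in the Gdf10 class of any library. Ntf3, neurotrophin 3, was 45.7, 4.61 and 10.2 CPM, and its mgR over WT ratio of 0.101 was 0.0217 among Gdf10-free cells, where its mgR-LOS over mgR ratio of 2.21 was 10.2. Cytl1, a secreted cytokine-like protein, was 74.6, 9.59 and 28.6 CPM, and its mgR-LOS over mgR ratio of 2.98 was 1.32 among Gdf10-free cells. Its mgR over WT ratio of 0.129 was 0.0852 there. Pdgfrl, a PDGF receptor-like protein, was 249, 41.0 and 74.3 CPM, and 1.33 times mgR in mgR-LOS among high-sum cells. AI507597, annotated as an antisense RNA gene at chr4:141614026-141615604, had 309 UMIs in WT, 1 in mgR and 3 in mgR-LOS, and it was also near 0 in the Gdf10 class of both mutant libraries, 38.2, 0.295 and 1.12 CPM.

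Most tested progenitor markers were higher in mgR over all Pi16 fibroblasts. Of the 30 tested members, 20 were at least 1.5-fold higher and 1 (Fbn1) lower in mgR than in WT, with a median log2 ratio of 0.88 against 0.04 for all tested genes. Set against mgR, mgR-LOS had 2 higher and 5 lower, with a median log2 ratio of -0.22. Among Gdf10-free cells these counts were 3 and 2, and among high-sum cells 3 and 3. Dpp4 was 56.1, 154 and 120.1 CPM and 2.75 (2.42 to 3.14) times WT in mgR. Cd55, a complement regulator, was 209.7, 563 and 416 CPM. Fn1, fibronectin, was 763, 2164 and 1396 CPM, and Wnt2 was 11.4, 55.6 and 32.7 CPM, with a mgR over WT ratio of 4.89 that was 2.87 among Gdf10-free cells. Its mgR-LOS over mgR ratio of 0.588 was 0.723 there. For Fn1 the mgR-LOS over mgR ratio of 0.645 was 0.710 and 0.756 in Gdf10-free and high-sum cells. Ackr3, a chemokine scavenging receptor, was 565, 693 and 389 CPM and was lower in mgR-LOS than in mgR by more than 1.5-fold. Smpd3, a sphingomyelinase, had the highest level in mgR-LOS, 70.6, 115 and 244 CPM, and its mgR over WT ratio was 1.42 among Gdf10-free and 1.17 among high-sum cells. In Gdf10-free cells, and again in high-sum cells, 13 of the 30 were higher and 1 lower in mgR than in WT. The list was written with the Pi16 rule in view, and the Pi16 sum of the rule was itself higher in mgR, so the members' direction is not independent of how the cells were chosen.

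Genes of activated fibroblasts were mostly higher in mgR, and several were lower again in mgR-LOS. Of 13 tested, 9 were higher and 1 (Meox1) lower in mgR over WT, against 6.94% and 4.76% of all tested genes. The median log2 ratio of the list was 0.74. Between mgR-LOS and mgR, 1 (Meox1) was higher in mgR-LOS and 6 were lower, against 3.11% and 2.41% of all tested genes. The median log2 ratio there was -0.56. Cthrc1, a secreted protein of collagen-producing fibroblasts, was 29.9 (25.4 to 35.0) in WT, 493 (478 to 508) in mgR and 85.1 (78.9 to 91.7) in mgR-LOS CPM. Its mgR level was 16.5 (14.0 to 19.5) times WT and its mgR-LOS level 0.173 (0.159 to 0.187) times mgR, with no overlap of intervals. Among Gdf10-free cells the mgR level was 8.65 (6.99 to 10.8) times WT. The Gdf10 class had 12.0, 215 and 14.1 CPM, so the high mgR level of Cthrc1 was found there too.

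Periostin and the crosslinking enzyme were also highest in mgR. Postn was 275, 782 and 532 CPM, with mgR at 2.84 (2.68 to 3.01) times WT, and at 1.71 (1.58 to 1.86) times among Gdf10-free cells. Lox, lysyl oxidase, was 346, 722 and 277 CPM, and its mgR-LOS level was 0.384 (0.365 to 0.403) times mgR. Its mgR over WT ratio of 2.09 was 3.19 among Gdf10-free cells. Timp1, an inhibitor of metalloproteinases, was 219.5, 453 and 213 CPM. For Lox and Timp1 mgR-LOS was at or below the WT level, while Postn in mgR-LOS stayed above WT. Meox1, a homeobox transcription factor, was 59.8, 12.9 and 22.0 CPM, lowest in mgR, with a mgR over WT ratio of 0.215 that was 0.125 among Gdf10-free cells, although among high-sum cells its mgR-LOS over mgR log2 ratio was -0.28.

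**Figure D4:**
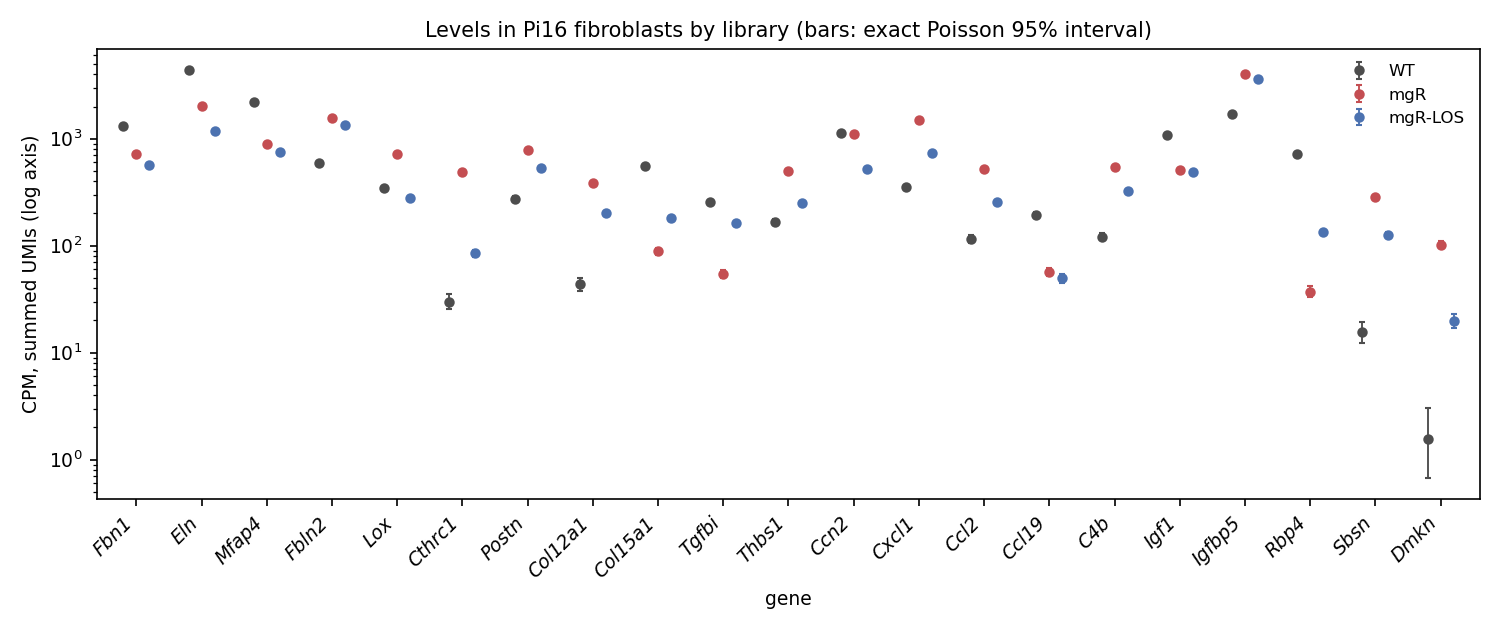
CPM on a log axis of 21 genes in Pi16 fibroblasts of the 3 libraries, with 95% exact Poisson intervals from the UMI counts, which cover counting error only. Eln and Mfap4 were highest in WT, Cthrc1, Sbsn and Dmkn in mgR, and mgR-LOS lay between WT and mgR for Cthrc1, Col15a1, Rbp4, Sbsn and Dmkn.

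The elastic fibre list divided. Of 20 tested genes, 6 were higher and 5 lower in mgR than in WT, with a median log2 ratio of 0.01. The lower genes were Fbn1, Eln, Mfap4, Ltbp1 and Ltbp2, but Ltbp1 was 0.671 times WT among Gdf10-free cells and Ltbp2 0.990 times among high-sum cells. Eln was 4362 (4306 to 4419) in WT, 2011 (1980.2 to 2042) in mgR and 1179.7 (1156 to 1203) in mgR-LOS CPM, and Mfap4, a microfibril-associated protein, was 2216, 884 and 753 CPM. The WT library was the highest for both. The higher genes were Fbln2, Efemp1, Efemp2, Emilin2, Lox and Loxl2, of which Efemp2 and Loxl2 were 1.44 and 1.37 times WT among high-sum cells. Fbln2, a fibulin, was 596, 1553 and 1345 CPM and 2.61 (2.50 to 2.71) times WT in mgR. In mgR-LOS over mgR, 0 were higher and 3 lower: Eln, at 0.587 (0.572 to 0.602) times mgR, Lox and Ltbp2. In the Gdf10 class Eln was 3279, 3949 and 2092 CPM and did not have WT as the highest library.

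Collagen genes varied less in the abundant chains. Of 17 tested, 3 were higher (Col8a1, Col12a1 and Col14a1) and 3 lower (Col6a2, Col6a3 and Col15a1) in mgR than in WT. The shares of all tested genes were 6.94% and 4.76%. Col1a1 was 6752, 5819 and 5779 CPM and Col3a1 12184, 9777 and 9197 CPM, within 1.5-fold between all libraries. Col12a1, a fibril-associated collagen, was 43.4, 384 and 202 CPM and 8.85 (7.73 to 10.2) times WT in mgR. Col8a1, a short-chain collagen of the vessel wall, was 152, 253 and 88.7 CPM, and its mgR-LOS level was 0.350 (0.321 to 0.381) times mgR. With losartan 1 gene of the list was higher than in mgR (Col15a1) and 2 were lower (Col8a1 and Col12a1), against 3.11% and 2.41% of all tested genes. Col4a3, Col4a4, Col4a6 and Col6a6, collagen genes that the list does not hold, were 1.57, 1.61, 2.003 and 4.16 times mgR. Among high-sum cells, 3 genes of the list were higher and 8 lower in mgR than in WT, with Col14a1 no longer among the higher at 1.31 times.

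The proteoglycan and hyaluronan list had more higher than lower genes in mgR. Of 14 tested genes of the list, 6 were higher and 1 lower than in WT, against 6.94% and 4.76% of all tested genes. The lower gene was Htra1, a serine protease that is counted in the IGF axis list too. Ugdh, which makes the sugar precursor of hyaluronan, was 486, 1078 and 1052 CPM. Has1, a hyaluronan synthase, was 222, 331 and 263 CPM, within 1.5-fold between mgR and WT. Has2, another, was 24.3, 55.4 and 38.7 CPM, and Cd44, its receptor, 47.6, 114 and 83.3 CPM. Ugdh, Has2 and Cd44 were lowest in WT. Prg4, lubricin, was 115, 253 and 99.7 CPM, with a mgR over WT ratio of 2.21 that was 9.80 among high-sum cells, and it was the 1 gene of the list that was lower in mgR-LOS than in mgR.

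Among proteases and inhibitors, 6 of 20 tested were higher and 2 lower in mgR than in WT, against 6.94% and 4.76% of all tested genes. Adamts5, an aggrecan and versican protease, was 369, 875 and 703 CPM, and Mmp3, stromelysin, 84.9, 157 and 125 CPM, the latter 1.24 times WT among high-sum cells. Mmp2, the gelatinase of resting fibroblasts, was 738, 553 and 565 CPM, within 1.5-fold of WT in both mutant libraries. Serpinf1 and Adamts2 were the lower members, but were 0.699 and 0.783 times WT among Gdf10-free cells, where 7 were higher and 0 lower. Among high-sum cells 5 were higher and 3 lower, with Serpinf1 and Adamts2 at 0.489 and 0.614 times WT. Over all Pi16 fibroblasts, 0 were higher and 3 lower (Adamts15 and Timp1 among them) in mgR-LOS than in mgR. The shares of all tested genes there were 3.11% and 2.41%. Adamts15, another protease of the family, was 38.8, 63.1 and 29.2 CPM, and 1.38 times WT in mgR among high-sum cells.

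The TGF-beta pathway list showed no common direction. Of 22 tested, 3 were higher in mgR (Smad7, Postn and Thbs1) and 2 lower (Tgfbi and Ltbp1), against 6.94% and 4.76% of all tested genes. The median log2 ratio of the list was -0.06. Of the ligands Tgfb1 was 41.9, 32.9 and 29.8 CPM, Tgfb2 111, 74.7 and 93.4 CPM and Tgfb3 100.1, 67.4 and 83.9 CPM. All 3 ligands were lower in mgR than in WT, each by less than 1.5-fold, with Tgfb2 and Tgfb3 close to that limit. None of the receptors Tgfbr1, Tgfbr2 and Tgfbr3 differed by 1.5-fold between mgR and WT. Among targets, Thbs1, thrombospondin 1, was 166, 496 and 250.3 CPM (mgR at 3.00 times WT, and at 1.53 times among Gdf10-free cells), and Tgfbi was 255, 54.3 and 161 CPM. Among Gdf10-free cells Smad7 was 1.46 times WT, and among high-sum cells Tgfbi was 0.112 times WT, against 0.213 over all. Of the list, 2 were higher and 3 lower in mgR than in WT among Gdf10-free cells, and 5 and 3 among high-sum cells. Ccn2, connective tissue growth factor, was 1123, 1109.8 and 522 CPM: WT and mgR were alike within 1.5-fold and mgR-LOS was 0.470 (0.454 to 0.488) times mgR. In the Gdf10 class Ccn2 was 1789, 2347 and 817 CPM, also lowest in mgR-LOS. Of the 22 tested, 1 was higher and 3 lower in mgR-LOS than in mgR, against 3.11% and 2.41% of all tested genes.

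Of the angiotensin and vasoactive genes, the losartan target Agtr1a was low, with 4.05, 8.86 and 8.27 CPM, and Agtr1b had 0.386, 0.121 and 0.365 CPM, both under the 20 CPM minimum. Of 8 tested genes, 3 were higher in mgR than in WT (Ptgs1, Ptgs2 and Npr3) and 1 lower (Ace). Ptgs2, the inducible cyclooxygenase, was 171, 581 and 486 CPM, and Ace, the angiotensin-converting enzyme, was 244, 143 and 142 CPM. Of the 8, 0 were higher and 1 was lower in mgR-LOS than in mgR, Npr3, the clearance receptor for natriuretic peptides, at 13.7, 40.3 and 22.7 CPM, whose mgR over WT ratio of 2.94 was 5.28 among Gdf10-free cells.

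Several chemokines were higher in mgR and lower again in mgR-LOS. Of 16 tested cytokine and chemokine genes, 7 were higher and 2 lower in mgR than in WT, and 0 were higher and 6 lower in mgR-LOS than in mgR. Of all tested genes, 6.94% and 4.76% were so in the first contrast and 3.11% and 2.41% in the second. The order of the libraries was not particular to Pi16 fibroblasts. Over the 22 genes of the list the summed level was 2630, 4645 and 3009 CPM in them. It was 2247, 4545 and 3336 CPM in the Gdf10 class and 1160, 3296 and 2899 CPM in the Comp class. All other cells had 688, 3194 and 1501 CPM. Ccl2, which draws in monocytes, was 116 (107 to 125) in WT, 522 (506 to 538) in mgR and 254 (243 to 265) in mgR-LOS CPM. Cxcl1, which draws in neutrophils, was 351 (335 to 367) in WT, 1484 (1458 to 1511) in mgR and 732 (713 to 750.3) in mgR-LOS CPM. The mgR-LOS library stood between WT and mgR for both. Ccl7 was 111, 344 and 199 CPM and Cxcl2 43.8, 158 and 98.6 CPM, in the same order, with Cxcl2 at 0.673 and 0.775 times mgR in mgR-LOS among Gdf10-free and high-sum cells. Ccl11 and Ccl19 were the 2 lower genes, with Ccl11, which draws in eosinophils, at 150.1, 76.7 and 70.5 CPM (mgR at 0.335 times WT among Gdf10-free cells) and Ccl19, a chemokine of lymphoid tissue, at 192, 56.9 and 49.5 CPM. Leukocyte markers moved with Ccl2 and Cxcl1 outside these cells: their sum in all other cells, given above, and the cells with a Ptprc UMI (126, 1549 and 662) were highest in mgR. Their part in the chemokine levels was not tested.

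Complement and interferon genes were counted next. For all tested genes the shares higher and lower were 6.94% and 4.76% in mgR over WT, and 3.11% and 2.41% in mgR-LOS over mgR. Of 10 tested complement genes, 5 were higher and 1 (C7) lower in mgR than in WT, and 0 were higher and 1 (C4b) lower in mgR-LOS than in mgR. C3 was 908, 1436 and 1294 CPM and C4b 121, 546 and 322 CPM. Among high-sum cells, 2 of the 10 were higher and 1 lower in mgR, C4b at 4.24 (3.77 to 4.78) times WT and C3 at 1.03 (0.992 to 1.07) times. Among Gdf10-free cells C3 was 1.39 times WT. Of 19 interferon-stimulated genes, 8 were higher and 0 lower in mgR over WT. Ifi27l2a was 917, 1854 and 1344 CPM and Ifit1 41.7, 84.5 and 59.6 CPM. In mgR-LOS over mgR, 1 was higher (Isg15) and 1 lower (Bst2, at 0.741 and 0.769 times mgR among Gdf10-free and high-sum cells). Isg15 was 27.2, 30.4 and 93.4 CPM and was 9.41, 29.7 and 49.4 CPM in all other cells.

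The Wnt, BMP and IGF lists held genes of both directions. All tested genes had 6.94% higher and 4.76% lower in mgR over WT, and 3.11% and 2.41% in mgR-LOS over mgR. Of 14 tested Wnt and BMP genes, 5 were higher (Wnt2, Sfrp1, Sfrp4, Nbl1 and Bmp6) and 3 lower (Wnt5a, Wif1 and Bmp4) in mgR than in WT, and in mgR-LOS over mgR 2 were higher and 3 lower. Among high-sum cells the log2 ratio of mgR over WT changed sign for Wif1 (0.24) and Sfrp1 (-0.0155). Nbl1 was 1.33 times WT in both restricted sets and Sfrp4 1.33 times among Gdf10-free cells. Wif1, a Wnt inhibitor, was 66.5, 24.5 and 19.0 CPM, with a mgR over WT ratio of 0.369 that was 0.180 among Gdf10-free cells. Bmp4 was 126, 40.4 and 64.9 CPM, and 1.494 times mgR in mgR-LOS among high-sum cells. Of 9 IGF axis genes, 3 were higher (Igfbp4, Igfbp5 and Igfbp6) and 2 lower (Igf1 and Htra1) in mgR than in WT. Igf1, the growth factor itself, was 1072, 514 and 484 CPM. Igfbp6 was 409.7, 1141 and 819 CPM. Of these 9, 1 was higher (Igfbp3) and 0 lower in mgR-LOS than in mgR, and the log2 ratio of Igfbp3 was -0.0675 among Gdf10-free and -0.88 among high-sum cells.

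Of 25 tested immediate early and stress genes, 0 were higher and 6 lower in mgR than in WT, against 6.94% and 4.76% of all tested genes. Among Gdf10-free cells 2 were higher and 4 lower, and among high-sum cells 1 was higher and 6 lower. The heat shock genes Hspa1a and Hspa1b, which also respond to tissue handling, were 640.0, 189 and 509 CPM and 651, 237 and 470.5 CPM. In mgR-LOS over mgR, 3 were higher (Hspa1a, Hspa1b and Btg2, the last at 1.496 times among high-sum cells) and 1 lower (Fosb). The Gdf10 class had the same order for Hspa1a, 915, 344 and 742 CPM.

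The remaining lists were small or mixed. Of 9 PDGF and FGF genes, 2 were higher (Fgf2 and Fgf7, the latter at 1.02 times WT among Gdf10-free cells and with a log2 ratio of -0.0933 among high-sum cells) and 2 lower (Pdgfrb and Pdgfrl) in mgR than in WT, and 1 was higher and 1 lower in mgR-LOS than in mgR. Of 9 adipogenic and lipid genes, 1 (Fabp4) was higher and 2 (Cebpd, at 0.772 times WT among Gdf10-free cells, and Apoe) lower in mgR (5 lower among high-sum cells), and 2 (Apoe and Gpc3) were higher and 0 lower in mgR-LOS over mgR. Of 6 retinoid genes, 1 (Aldh1a3) was higher and 2 (Rbp4 and, at 0.694 times WT among Gdf10-free cells, Aldh1a1) lower in mgR, and 1 (Rbp4) was higher in mgR-LOS over mgR. Of 19 fibroblast transcription factors, 3 were higher (Creb5, Ebf1 and Ebf2) and 3 lower (Twist2 and Meox1 among them) in mgR, but Creb5 and Ebf2 were under 1.5 times WT in both restricted sets, at 1.43 and 1.39 among Gdf10-free cells, with Ebf2 at 1.29 among high-sum cells, and Twist2 was 0.752 times WT among Gdf10-free cells. Between mgR-LOS and mgR 2 were higher (Osr1 and Meox1) and 1 lower (Prrx2). Ebf1 was 310.2, 674 and 829.6 CPM. Of the cell cycle genes 1 of 10 was tested, Pcna, at 59.4, 52.6 and 53.9 CPM. Of the leukocyte, endothelial and Schwann markers 1 each was tested (Cd74, Eng and S100b), with S100b lower in mgR (0.266 times WT among Gdf10-free and 0.786 times among high-sum cells, against 0.658 over all) and Cd74 higher in mgR-LOS than in mgR. Of the smooth muscle markers outside the rule 2 were tested, of which Lmod1 was lower in mgR (0.668 times WT among high-sum cells) and higher in mgR-LOS over mgR, and no mesothelial, red cell or adipocyte marker reached the minimum.

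**Figure D5:**
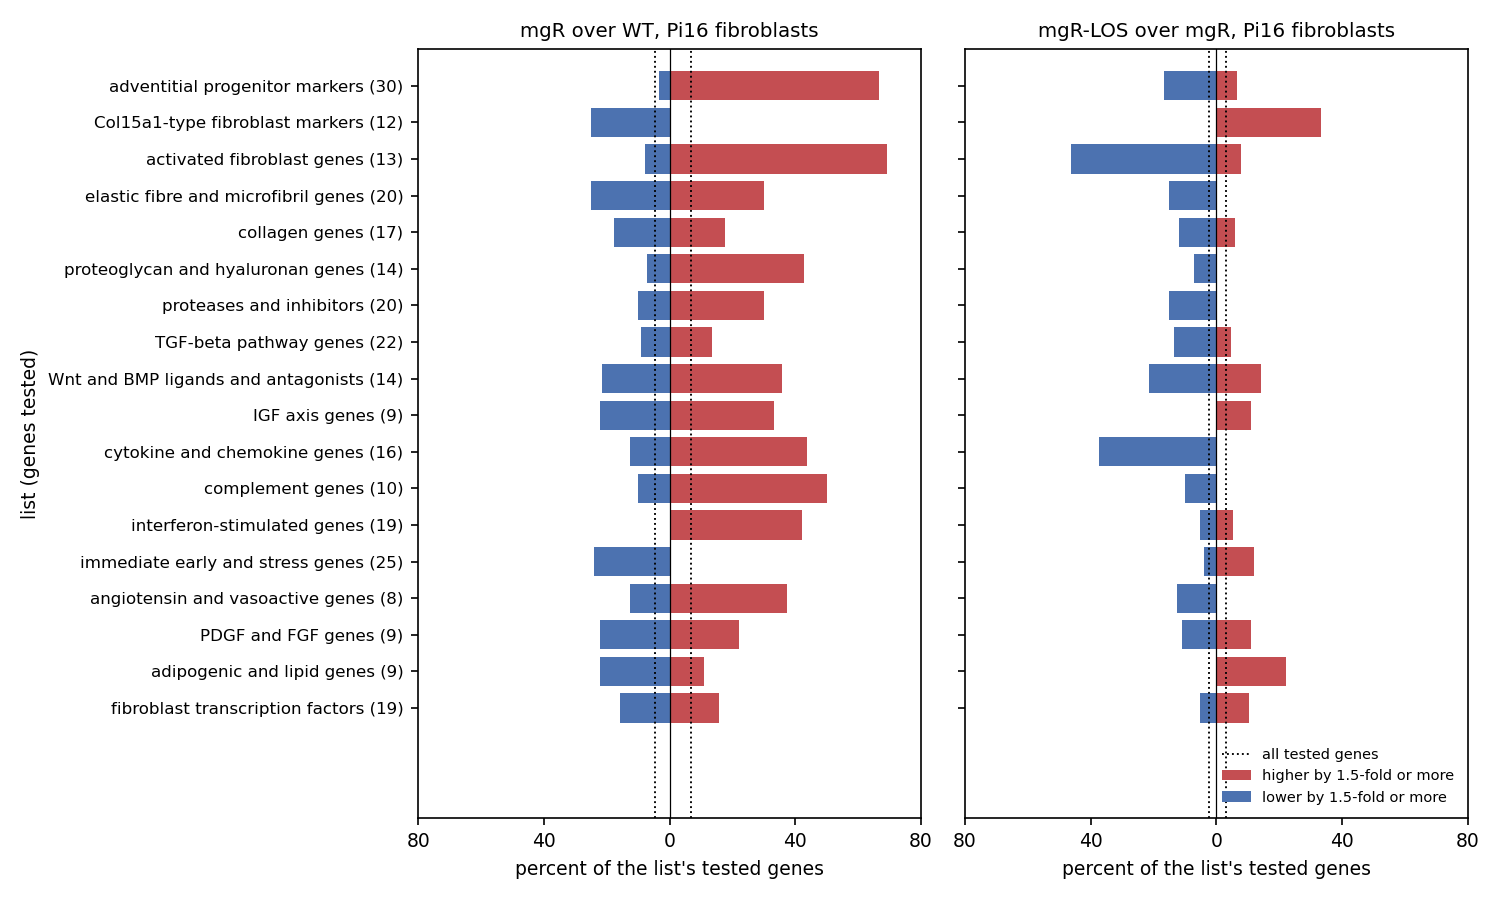
Percent of the tested genes of each list (number in parentheses, rule genes left out) that were higher (red) or lower (blue) by 1.5-fold or more, mgR over WT on the left and mgR-LOS over mgR on the right; dotted lines mark the share of all 5821 tested genes. The progenitor list (20 of 30), the activated fibroblast list (9 of 13), the complement list (5 of 10), the chemokine list (7 of 16), the proteoglycan list (6 of 14) and the interferon list (8 of 19) have the most higher genes for their size in mgR over WT among lists with at least 10 tested genes.

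With losartan, the genes with the largest mgR-LOS over mgR ratio were Lsamp, Spock2, Zbtb16, Col6a6, Rbp4, Angptl4, Lamc3, Inmt, Isg15 and Ntrk3. Lsamp, a neural adhesion molecule, was 49.0, 11.3 and 57.4 CPM. Spock2, a matrix proteoglycan, was 37.8, 6.31 and 26.6 CPM, and its ratio of 4.22 was 2.79 among high-sum cells. Col6a6 was 42.1, 8.01 and 33.3 CPM, and Ntrk3, the neurotrophin 3 receptor, was 69.4, 11.8 and 36.0 CPM. These 4 genes, with Rbp4 and Lamc3, had their lowest level in mgR. Zbtb16, a zinc finger transcription factor, was different: it was 16.8, 29.1 and 123 CPM, highest in mgR-LOS, and the same held in all other cells at 28.0, 15.6 and 126 CPM. Angptl4, a lipase inhibitor, was 13.1, 17.1 and 60.1 CPM, also highest in mgR-LOS, and Inmt, a methyltransferase of indoles, 49.4, 35.3 and 109 CPM.

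The genes with the smallest mgR-LOS over mgR ratio were Hist1h2ap, Cthrc1, Dmkn, Ccn5, Hp, Alpl, Panx1, Emb, Col8a1 and C1qtnf3. Ccn5, a matricellular protein related to Ccn2, was 462 (443 to 481) in WT, 386 (373 to 400.2) in mgR and 77.6 (71.7 to 83.8) in mgR-LOS CPM. WT and mgR were within 1.5-fold for Ccn5 and mgR-LOS was 0.201 (0.184 to 0.219) times mgR, and the Gdf10 class had 438, 543 and 128 CPM. Panx1, a membrane channel, was 15.4, 54.0 and 18.2 CPM, and Alpl, alkaline phosphatase, 38.2, 33.8 and 10.6 CPM. Hist1h2ap, a replication histone gene of a multigene family, was 13.7, 55.0 and 8.15 CPM, and it may share reads with near-identical copies. Among Gdf10-free cells its log2 ratio of mgR over WT was -0.60, and its mgR-LOS over mgR ratio was 0.523 against 0.148 over all. The matrix headers name a different Cell Ranger version for mgR-LOS than for WT and mgR, so pipeline version and losartan cannot be told apart from these files.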

How the data were processed

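Cells from the ascending aorta were freed with elastase and collagenase A and captured on Chromium 3′ v3.1 chips. The authors deposited 1 filtered matrix of UMI counts per library, mapped to GRCm38 with Cell Ranger; the submitters' processing notes give version 6.0.1, while the matrix headers give 5.0.1 for WT and mgR. The counts were not normalized. Over all deposited barcodes the WT, mgR and mgR-LOS libraries held 83338726, 123956320 and 121436873 UMIs.

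The members, gene lists and named-gene rule were chosen with earlier results of these data known. UMIs were summed over the chosen cells of a library and scaled to 1000000 UMIs (CPM). Genes with a mean of at least 20 CPM were compared, a fold of 1.5 was counted, and no test was made because each group was 1 library. Intervals are 95% exact Poisson for levels, Clopper-Pearson for shares and conditional binomial for ratios, and cover counting error only. A count of 0 allows up to 3 counts. Detection shares used barcodes thinned to 3000 UMIs. Doublets were scored against artificial pairs (25% artificial barcodes, 10 components, 2000 variable genes, an expected 0.8% per 1000 barcodes) and kept. Smooth muscle cells had a summed contractile count of at least 300 and Dcn under 20 per 10000 UMIs, with Ptprc and Pecam1 at 0. Named genes were Fbn1, the markers, genes of the 29 lists with the largest ratios or levels, the 10 highest and 10 lowest ratios of each contrast (mt-, ribosomal protein, globin and rule genes left out), the leading 15 over the Gdf10 class and 10 over the Comp class at 50 CPM or more, the 10 most abundant and the 15 most variable by Pearson residuals. Gene positions are from GENCODE vM21 and promoters from RefSeq. Some genes of the lists are counted but not reported here by name. Code was tested on simulated data. Python 3.11.15, numpy 2.4.6, pandas 2.3.3 and scipy 1.17.1 were used. Alternatives changed the limits of the rule, the doublets, the scaling, the fold and the minimum level.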

Additional observations from a re-analysis of the deposited data

Results flagged for a closer look

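For 6 genes the same contrast went past 1.5-fold in opposite directions in Pi16 fibroblasts and in the Gdf10 class. With 1 library per group this difference was not tested. The share of all tested genes doing so is not given here, so the 6 are described as single genes. Cd55 in mgR was 2.69 times WT in Pi16 fibroblasts and 0.418 times WT in the Gdf10 class, where its level was 56.9, 23.8 and 26.4 CPM. Prg4 in mgR was 2.21 times WT against 0.472 times in the Gdf10 class, at 69.7, 32.9 and 20.8 CPM there, and 9.80 times WT among Pi16 fibroblasts with the marker sum at least 20. Limch1, an actin-associated protein, was 1.83 times WT against 0.409 times, with 64.2, 118 and 128 CPM in Pi16 fibroblasts and 47.2, 19.3 and 23.7 CPM in the Gdf10 class. Among Pi16 fibroblasts with no UMI of the Gdf10 sum Limch1 was 1.46 times WT. Creb5, a transcription factor, was 1.58 times WT against 0.641 times, and under 1.5 times WT in each of the 3 restricted sets of cells. Ccl11 went the other way, at 0.511 times WT in Pi16 fibroblasts and 2.95 times WT in the Gdf10 class, where it was 14.2, 42.0 and 62.3 CPM. Cytl1 in mgR-LOS was 2.98 times mgR in Pi16 fibroblasts (1.32 times in those with no UMI of the Gdf10 sum) and 0.557 times mgR in the Gdf10 class, where it was 90.6, 22.4 and 12.5 CPM.

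Barcodes outside the quality limits also met the rest of the rule. They were 35 of 2497 in WT (1.40%, 0.978 to 1.94%), 66 of 2581 in mgR (2.56%, 1.98 to 3.24%) and 62 of 1942 in mgR-LOS (3.19%, 2.46 to 4.07%), both mutant shares above that of WT. In mgR 47 of the 66 had too many genes, with 5 in WT and 17 in mgR-LOS. Their Mfap5 level was 2304, 4343 and 3857 CPM.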

How the results depend on the processing

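Most values moved little. Of 90 gene counts 72 stayed within 1.5 times of those reported, and of 27 shares 22 moved by less than their interval, among them all with called doublets removed. With Dcn at least 40 the mgR share was 36.9%, and without the Ptprc and Pecam1 condition 35.2%. With the first sum at least 6 the shares in WT, mgR and mgR-LOS were 42.8%, 30.4% and 31.6%. In the order mgR over WT higher and lower, mgR-LOS over mgR higher and lower, and mgR-LOS over WT higher and lower, the gene counts were 137, 84, 46, 41, 133 and 80 with a minimum of 100 CPM. They were 846, 620, 466, 370, 942 and 567 with a minimum of 5 CPM, and 162, 114, 37, 33, 125 and 83 with a fold of 2. These settings change how many genes can be counted.

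Alternatives added after seeing the data restricted the cells. Of gated fibroblasts, Pi16 fibroblasts with no UMI of Gdf10, Hsd11b1 or Cpxm2 made up 14.9%, 17.8% and 19.7%, those with the first sum at least 20 made up 23.7%, 21.3% and 20.5%, and those with no mesothelial UMI 28.1% in mgR and 31.8% in mgR-LOS. All 18 gene counts stayed within 1.5 times, but the genes counted were not all the same. In mgR over WT the first restriction kept 302 of the 404 higher and 195 of the 277 lower genes. The second kept 291 and 183 of these, and the third 370 and 247. In mgR-LOS over mgR the first kept 119 of the 181 higher and 84 of the 140 lower genes. The second kept 117 and 95 of these, and the third 160 and 118. Named genes past 1.5-fold in mgR over WT lost that in 30 of 148 cases with a ratio in the first of these restrictions, 28 of 151 in the second and 5 of 151 in the third. Of the same 148, 151 and 151 genes, whether lost or kept, the ratio of 28, 18 and 1 moved by over 1.5 times. In mgR-LOS over mgR 14 of 83, 16 of 84 and 3 of 84 were lost. Under the other settings no named gene reversed. With no UMI of the Gdf10 sum, log2 ratios reversed for Comp (-0.46), Hist1h2ap (-0.60) and Ptch1 (0.0732) in mgR over WT, and for Igfbp3 (-0.0675) in mgR-LOS over mgR. With the first sum at least 20 they reversed for Fgf7 (-0.0933), Sfrp1 (-0.0155) and Wif1 (0.24) in mgR over WT, and for Igfbp3 (-0.88) and Meox1 (-0.28) in mgR-LOS over mgR. The cause was not tested. Comp is a gene of the class rule, so how the cells were chosen limits its level. The counts of named genes include it and other genes of the rule.

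No paired analysis was possible because each group was 1 library, and for the same reason leaving out a library was not possible. The WT cells had the fewest UMIs in sum, which limits the precision of levels of a few CPM, and the mgR-LOS cells had the fewest per cell.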
